A study of Mus musculus with 12 samples.

Results

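The comparison described here set 3 arrays of POR-null mice against 3 arrays of wild type mice, all on control diet, out of a series of 12 arrays. The arrays were chosen by their titles alone, and every probe set of the deposited table other than the Affymetrix controls was tested, 22626 of 22690. Wild type mice were male C57BL/6 animals of 6 to 8 weeks, and the POR-null mice were males of the same age that lack cytochrome P450 reductase. As known from the literature, an albumin-driven Cre removes the gene in hepatocytes of this line, and the colon is not a site of the deletion. Both groups had 14 days on a soya-free RM3 powder and then 24 hours more on it with nothing added, and neither group received quercetin. The colon, from below the caecum to above the rectum, was rinsed and its epithelial layer scraped off. RNA of 3 mice was pooled for each array, so that each group holds 9 mice and a replicate is a pool. The labels do not say whether the pools were processed together, so that the p-values measure only the spread between these pools. The probe set of the deleted gene has no name in the annotation supplied and is not analysed here. The other 6 arrays of the series, POR-null and wild type mice given 6200 ppm quercetin for the 24 hours, hold separate mice and served as an independent set of the same genotype contrast.

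POR is the flavoprotein that hands electrons from NADPH to the microsomal cytochromes P450, to haem oxygenase and to squalene epoxidase of the cholesterol pathway. Mice without it in hepatocytes make little bile acid, accumulate hepatic lipid and clear drugs slowly, as background from the literature. The colon epithelium is built of absorptive colonocytes, goblet cells and rarer secretory cells that renew from crypt stem cells. The labels and the design text state the comparison without a hypothesis for this tissue.

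Values are the deposited log2 signals, so that a difference of 1 is a doubling. Differences are given as POR-null minus wild type, with the standard error (SE) of the moderated limma fit. Array medians ran from 5.9 to 5.98. The tissue label held for its markers. In wild type and POR-null pools the carbonic anhydrase Car1 averaged 13.02 and 12.56, the carbonic anhydrase Car4 11.58 and 11.82, and the goblet cell peptide Tff3 12.49 and 12.82, among the brightest signals of the arrays. The mean over 17 colonocyte markers was 11.32, 11.46 and 11.49 in the wild type arrays and 11.39, 11.35 and 11.54 in the POR-null arrays, so the groups overlapped. In such tissue, fewer cells of a type and less RNA per cell cannot be told apart.

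No probe set passed the adjusted threshold of 0.05 (limma, Benjamini-Hochberg over 22626 probe sets, 0.0%), and the smallest adjusted p was 0.545. It belongs to a probe set without a single gene symbol, which is not named below. The smallest among named genes was 0.71 in the same fit. At an unadjusted p under 0.05 there were 1537 probe sets (6.79%), 833 higher and 704 lower in POR-null. Counting 1 probe set, the brightest, for each of 12393 genes, 460 genes (3.71%) were higher and 341 (2.75%) lower at that level, and 1152 genes (9.3%) had no overlap between the 3 arrays of each group. The median difference over all genes was -0.0067 and the lowest -2.28, while over all probe sets the lowest was -4.08. Every difference below is therefore a measured value that did not pass the adjusted test in the 12-array fit, and gene groups are read against these background shares.

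How many probe sets passed depended on how single arrays entered the fit. Same-numbered control diet arrays of both genotypes deviated together, which those on quercetin diet did not in every pair. With the array number as a block in a fit of the 6 control diet arrays alone, an alternative added after the data were seen, 47 probe sets passed (0.208%), 41 higher and 6 lower. Without wild type array 1, 41 passed (0.181%), 17 higher and 24 lower. With arrays weighted by their agreement with the fit, 399 passed (1.76%), 256 higher and 143 lower, and the weights ran from 0.45 for POR-null array 3 to 2.72 for POR-null array 2. The sets of 47 and of 41 had 0 probe sets in common. With the block in the fit of all 12 arrays 0 passed. The pairing by array number was taken from these data and is not given by the labels. All these fits share the control diet arrays, so a gene that passes in one of them, as given below, was not tested independently.

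The 30 genes of smallest unadjusted p were named by rule, 12 higher and 18 lower in POR-null. Of these, 29 had no overlap between groups, which their choice by p largely fixes. Their differences ran from 0.34 to 1.17 in size and their adjusted p was 0.71 throughout. Only Cbr3 and Mpst exceeded a size of 1. All 30 passed with array weights, 3 with the block in the 6 arrays (Arg2, Xpnpep2 and Gas5) and 2 without wild type array 1 (Rtn4 and Acp6). These fits use arrays on which the genes were chosen, so passing them adds no independent support.

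**Figure D1:**
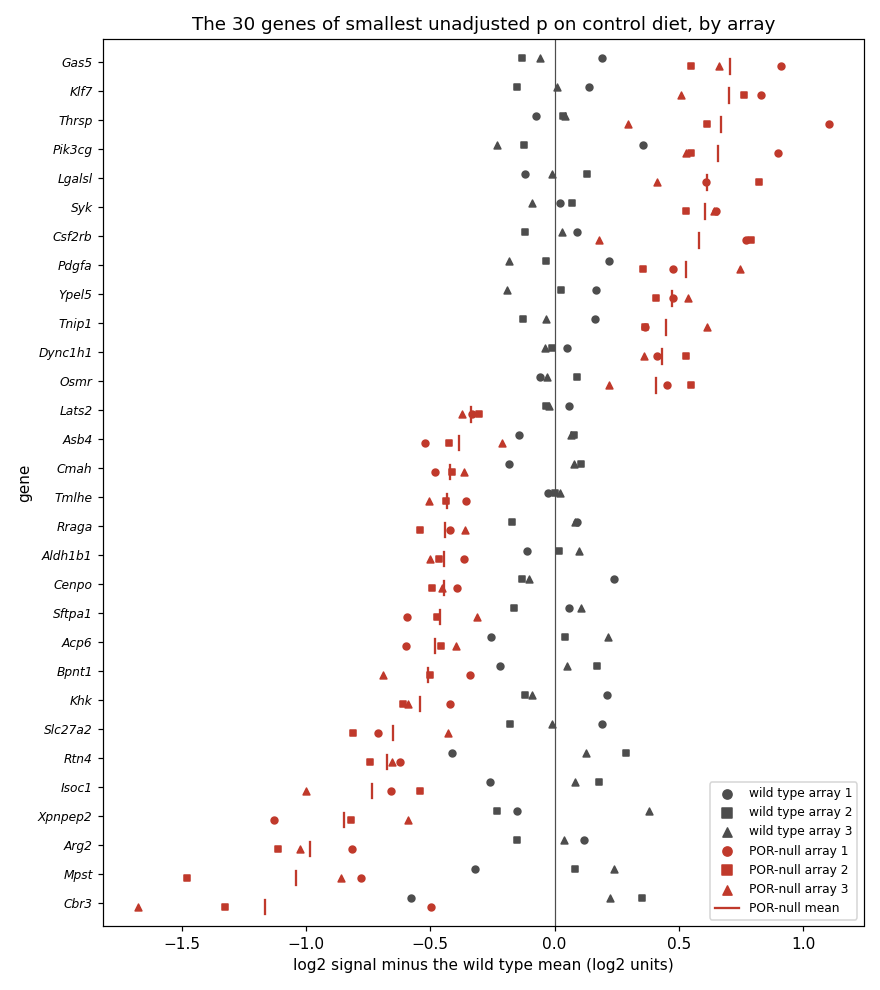
Log2 signal of the 30 genes of smallest unadjusted p in each of the 6 control diet arrays, with the wild type mean of the gene set to 0 (x axis, log2 units), grey for wild type and red for POR-null, marker shape for the array number and a red bar for the POR-null mean (n = 3 pools per group). The red and grey points are apart for 29 genes, and for Cbr3 the POR-null array 1 lies inside the wild type range.

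On the lower side, Mpst, the mercaptopyruvate sulfurtransferase that takes part in making hydrogen sulfide, read 7.67, 8.07 and 8.23 in the wild type arrays and 7.21, 6.51 and 7.13 in the POR-null arrays. The difference was -1.04 (SE 0.20), and the highest POR-null array lay below the lowest wild type array. The carbonyl reductase Cbr3 read 8.08, 9.01 and 8.88 in wild type and 8.16, 7.33 and 6.98 in POR-null (-1.17, SE 0.28). Its groups overlapped because wild type array 1 was low and POR-null array 1 high. Arg2, the mitochondrial arginase, read 5.75, 5.48 and 5.67 against 4.82, 4.52 and 4.61 (-0.98, SE 0.24), and another probe set of it gave -0.84. Arg2 passed with the block in the 6 arrays (adjusted p = 0.0199).

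Khk, the ketohexokinase that phosphorylates fructose, read 7.61, 7.28 and 7.31 in wild type and 6.98, 6.79 and 6.81 in POR-null (-0.54, SE 0.13). Bpnt1, which clears the nucleotide left over by sulfation, read 7.86, 8.25 and 8.13 against 7.74, 7.58 and 7.39 (-0.51, SE 0.13), and its other probe set gave -0.20. Both genes kept the lowest wild type array above the highest POR-null array. The mitochondrial aldehyde dehydrogenase Aldh1b1 differed by -0.44 (SE 0.11), Tmlhe, which starts carnitine synthesis, by -0.43 (SE 0.10) and the lysophosphatidate phosphatase Acp6 by -0.48 (SE 0.12). The other probe sets of Tmlhe gave 0.03 and -0.06. Cmah, the hydroxylase that makes N-glycolylneuraminic acid, differed by -0.42 (SE 0.10), and Isoc1, of the isochorismatase family, by -0.73 (SE 0.18), where its other 3 probe sets gave -0.22 to -0.26.

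Xpnpep2, a membrane-bound aminopeptidase of the brush border, read 7.48, 7.40 and 8.01 in wild type and 6.50, 6.81 and 7.04 in POR-null (-0.85, SE 0.19), and passed with the block in the 6 arrays (adjusted p = 0.0483). The acyl-CoA synthetase and fatty acid transporter Slc27a2 read 6.51, 6.14 and 6.31 against 5.61, 5.51 and 5.89 (-0.65, SE 0.15). The endoplasmic reticulum shaping protein Rtn4 read 8.32, 9.02 and 8.86 against 8.11, 7.99 and 8.08. Its difference was -0.67 (SE 0.15) with all arrays and -0.88 without wild type array 1, the lowest of its group, where the adjusted p was 0.019. Another Rtn4 probe set gave -0.39. The Rag GTPase Rraga, which signals amino acids to mTORC1, differed by -0.44 (SE 0.09). The Hippo kinase Lats2 differed by -0.34 (SE 0.07) at a signal near 4.35 in wild type, and its other 5 probe sets gave -0.27 to 0.14. The rest of the lower side was Cenpo, a centromere protein (-0.45), Asb4, a substrate adaptor of ubiquitin ligases (-0.39), and Sftpa1, a surfactant protein of lung that read 4.87 in wild type (-0.46). Another probe set of Sftpa1 gave 0.05 and the other 3 of Cenpo -0.17 to -0.02.

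On the higher side, Syk, the tyrosine kinase of immune receptors, read 6.51, 6.56 and 6.40 in wild type and 7.14, 7.02 and 7.13 in POR-null (0.61, SE 0.14), with 0.47 and 0.23 in its other probe sets. Pik3cg, the leukocyte PI3-kinase gamma, read 5.86, 5.38 and 5.27 against 6.40, 6.05 and 6.03 (0.66, SE 0.16), and its other probe set, at 4.01 in wild type, gave 0.22. In the named probe sets of both genes all POR-null arrays lay above all wild type arrays. The shared beta chain of the IL-3, IL-5 and GM-CSF receptors, Csf2rb, differed by 0.58 (SE 0.14), and the oncostatin M receptor Osmr by 0.41 (SE 0.09) at 3.59 in wild type, where its other probe set gave -0.04. Osmr, Csf2rb, Lats2 and Asb4, 4 of the 30 genes, had both group means below the lower quartile of every array, which was 4.66 at its lowest.

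Tnip1, a partner of A20 that restrains NF-kappaB signalling, differed by 0.45 (SE 0.10) and the growth factor Pdgfa by 0.53 (SE 0.13). The dynein heavy chain Dync1h1 read 8.98, 8.92 and 8.89 in wild type and 9.34, 9.46 and 9.29 in POR-null (0.43, SE 0.08). It had the smallest unadjusted p among named genes, 0.00015. Gas5, a spliced transcript that hosts small nucleolar RNAs, read 8.46, 8.14 and 8.21 against 9.18, 8.82 and 8.93 (0.71, SE 0.14), and its other probe sets gave 0.58, 0.39 and 0.16. Gas5 passed with the block in the 6 arrays (adjusted p = 0.0483). Ypel5, of the yippee family, differed by 0.47 (SE 0.10) and by 0.41 in its other probe set. Lgalsl, a galectin-like protein, differed by 0.61 (SE 0.13), while its brighter probe set gave 0.23. The zinc finger factor Klf7 differed by 0.70 (SE 0.15), where its other 3 probe sets gave 0.02 to 0.17. Thrsp, a protein linked to lipogenesis, read 4.05, 4.16 and 4.17 against 5.23, 4.74 and 4.42 (0.67, SE 0.16), and its brighter probe set gave 0.12.

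On quercetin diet the same 30 genes had the same sign in 13 and the opposite sign in 17. Only Rraga had an unadjusted p under 0.05 there, with the same sign (-0.22). Gas5 differed by -0.22, Xpnpep2 by 0.28, Mpst by -0.083 and Khk by 0.20 on quercetin diet. In the test of the difference between diets the lowest adjusted p among the 30 was 0.998, and since they were chosen on the control diet arrays their unadjusted values are not a test. Over all probe sets, 541 had an unadjusted p under 0.05 for genotype on quercetin diet and 1073 for the difference between diets, with 0 past the adjusted threshold in each (limma). Averaged over both diets, 946 had an unadjusted p under 0.05 and 0 passed. Across the 12074 genes with a difference other than 0 on both diets, 5898 (48.8%) had the same sign, and Pearson's r between the contrasts was -0.31, a description over genes that share arrays and are not independent.

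Cholesterol synthesis genes were higher in POR-null on both diets. The pathway turns acetyl units into sterols by way of mevalonate and squalene, and its genes are controlled together by SREBP2 when cell sterol is low, as background. Of 17 measured members, 16 were higher and 1 lower on control diet, with a median of 0.17 against -0.0067 over all genes. At an unadjusted p under 0.05, 6 were higher and 0 lower (35.3%, against 3.71% of all genes on the higher side), and 2 had no overlap between groups (11.8%, near the 9.3% of all genes). On quercetin diet, 15 were higher and 2 lower, with a median of 0.20. The signs matched in 16 of 17, against 48.8% of all genes. None of the 17 had an unadjusted p under 0.05 for the difference between diets. Over all genes 573 of 12074 had one, so a count of 0 in 17 is near that share. With array weights 6 members passed the adjusted threshold (Hmgcs1, Mvd, Idi1, Fdft1, Cyp51 and Msmo1), and without wild type array 1 Hmgcs1 passed.

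The start regions of 3 of these genes are shown, as those of Hmgcs1, Msmo1 and Idi1 lie among the 4 members of smallest p. They run from 250 bases before to 50 bases after the RefSeq transcript start (GRCm38.p6), 5′ to 3′ along the gene. Capitals mark the core of a sterol regulatory element, searched as TCACNCCAC, and the CCAAT box bound by NF-Y, searched as CCAAT, each on both strands, so that CCAAT on the other strand reads ATTGG. The motifs do not overlap here. The Hmgcs1 region is chr13:119690101-119690400 on the plus strand, that of Msmo1 chr8:64733529-64733828 on the minus strand, and that of Idi1 chr13:8885356-8885655 on the plus strand.
Hmgcs1: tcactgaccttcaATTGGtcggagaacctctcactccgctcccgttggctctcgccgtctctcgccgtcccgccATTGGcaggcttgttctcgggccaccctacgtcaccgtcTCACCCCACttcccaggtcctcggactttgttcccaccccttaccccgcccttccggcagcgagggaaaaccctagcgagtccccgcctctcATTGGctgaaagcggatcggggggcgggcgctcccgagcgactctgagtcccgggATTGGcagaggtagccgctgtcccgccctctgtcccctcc
Msmo1: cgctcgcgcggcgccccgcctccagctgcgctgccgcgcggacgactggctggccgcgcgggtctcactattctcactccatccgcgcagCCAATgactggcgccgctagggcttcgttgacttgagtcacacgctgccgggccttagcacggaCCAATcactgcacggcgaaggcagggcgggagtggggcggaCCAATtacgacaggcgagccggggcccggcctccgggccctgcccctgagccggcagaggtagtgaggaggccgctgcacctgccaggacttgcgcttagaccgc
Idi1: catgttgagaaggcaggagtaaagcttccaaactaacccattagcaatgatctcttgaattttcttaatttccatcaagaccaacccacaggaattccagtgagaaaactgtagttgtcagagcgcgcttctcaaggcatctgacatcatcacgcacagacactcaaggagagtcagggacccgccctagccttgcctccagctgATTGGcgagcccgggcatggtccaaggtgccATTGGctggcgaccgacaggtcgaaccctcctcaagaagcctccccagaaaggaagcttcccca

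The sterol element core was found at -137 in Hmgcs1 and in 1 of the 17 windows of this list (5.88%), which cover 14 of the 17 genes. It was found in 408 of 32851 windows of all genes (1.24%). The CCAAT box was found in 14 of the 17 windows (82.4%), against 12289 of all windows (37.4%), 18 of the 38 windows of fatty acid oxidation genes (47.4%) and 11 of the 24 of fatty acid synthesis genes (45.8%). A match is only a stretch of letters, and windows of a gene can overlap.

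The enzymes differed along the pathway. Hmgcs1, the cytosolic HMG-CoA synthase at its entry, read 10.57, 9.59 and 9.42 in wild type and 10.58, 10.82 and 10.47 in POR-null (0.76, SE 0.23). Wild type arrays 2 and 3 lay below all POR-null arrays and wild type array 1 lay among them. Without wild type array 1 the difference was 1.12 (adjusted p = 0.0166, limma). The other 3 Hmgcs1 probe sets gave 0.43 to 0.50. Fdft1, squalene synthase, read 8.35, 7.69 and 7.41 against 8.29, 8.60 and 8.29 (0.58, SE 0.21), the same order of arrays, and its other probe sets gave 0.82, -0.080 and -0.16.

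Idi1, the isopentenyl diphosphate isomerase, read 8.18, 7.55 and 7.28 in wild type and 8.29, 8.61 and 7.85 in POR-null (0.58, SE 0.23), and its other probe set gave 0.96. Msmo1, the sterol C4-methyl oxidase, read 9.50, 9.12 and 8.97 against 9.65, 10.00 and 9.49 (0.52, SE 0.19). In all 4 genes wild type array 1 was the highest of its group. Among the other members, the squalene epoxidase Sqle, which takes its electrons from POR, differed by 0.36, the lanosterol demethylase Cyp51, a P450 served by POR, by 0.44, and Mvd by 0.39. Sc5d, which places the late double bond of the sterol ring, was the member on the lower side on control diet (-0.19), and was lower on quercetin diet as well (-0.23). Averaged over the list, the arrays read 8.04, 7.74 and 7.63 in the wild type arrays and 8.10, 8.23 and 7.91 in the POR-null arrays, with an overlap through wild type array 1 (exact two-sided permutation p = 0.2, where 0.1 is the smallest possible). The median stayed between 0.17 and 0.34 when each of the 6 arrays was left out in turn.

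Of 15 measured genes of sterol sensing, uptake and export, 10 were higher and 5 lower (median 0.043). On the lower side 1 had an unadjusted p under 0.05 (6.67%, against 2.75% of all genes). This was Scarb1, the HDL receptor, at 6.33, 6.83 and 6.62 in wild type and 6.25, 5.94 and 6.19 in POR-null (-0.47, SE 0.15), whose other probe sets gave -0.073 and -0.033. The regulator Srebf2 differed by 0.030 and its escort Scap by -0.12.

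Genes of fatty acid uptake and oxidation were lower in POR-null on control diet. This programme brings fatty acids into the cell and breaks them down in mitochondria and peroxisomes, and PPARalpha is a main regulator of it, as background. Of 38 measured members, 35 were lower and 3 higher, with a median of -0.23. At an unadjusted p under 0.05, 8 were lower and 0 higher (21.1%, against 2.75% of all genes on the lower side), and 7 had no overlap between groups (18.4%, against 9.3%). The list mean was 8.11, 8.47 and 8.27 in wild type and 8.11, 8.07 and 7.96 in POR-null. The groups did not overlap, though wild type array 1 stood only just above POR-null array 1 (exact two-sided permutation p = 0.1). With 3 arrays against 3 this test cannot go below 0.1, so it cannot reach 0.05 for any list. On quercetin diet, 17 members were higher and 21 lower, with a median of -0.023, and 5 of 38 had an unadjusted p under 0.05 for the difference between diets. Over all genes 573 of 12074 reached that level for this difference.

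At the uptake step, the transporter Slc27a4 read 9.45, 10.00 and 9.81 in wild type and 9.22, 9.00 and 9.20 in POR-null (-0.61, SE 0.18), beside Slc27a2 above. In the mitochondrion, the ketone body dehydrogenase Bdh1 read 9.26, 9.34 and 9.38 against 9.06, 9.00 and 8.74 (-0.39, SE 0.11), with another probe set at 0.12. In the peroxisome, the bifunctional enzyme Hsd17b4 read 8.32, 8.83 and 8.64 against 8.25, 8.16 and 8.36 (-0.34, SE 0.12). The groups were apart for Slc27a4 and Bdh1 and overlapped for Hsd17b4. The electron transfer proteins Etfa (-0.29) and Etfdh (-0.34) and the dehydrogenases Acadvl (-0.28) and Hadh (-0.21) made up the rest of the 8 members. Ppara itself differed by -0.26 and Cpt1a, the gate to mitochondrial oxidation, by -0.27, both with an unadjusted p over 0.05. Fabp1, the fatty acid binding protein of liver and small intestine, had the largest difference of the list (-1.51, SE 0.83), with SDs of 1.02 and 1.40, and is also a small intestine marker, described further on. With array weights Slc27a2, Slc27a4 and Hsd17b4 passed. The median stayed between -0.35 (without wild type array 1) and -0.11 (without wild type array 2).

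**Figure D2:**
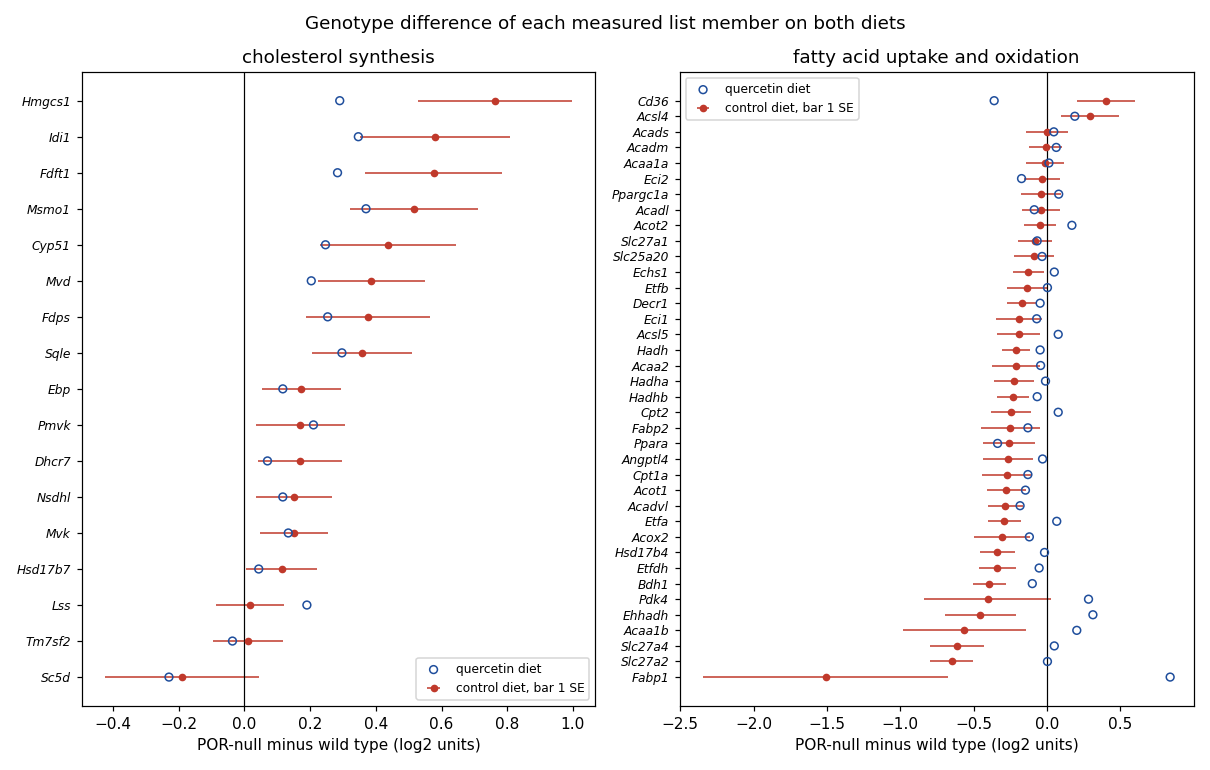
POR-null minus wild type (x axis, log2 units) for each measured gene of cholesterol synthesis (left, 17 genes) and of fatty acid uptake and oxidation (right, 38 genes), red for control diet with a bar of 1 SE and open blue for quercetin diet (n = 3 pools per group and diet). In the left panel 16 red and 15 blue points lie above 0, and in the right panel 35 red points lie below 0 while 17 blue points lie above it.

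Fatty acid and triglyceride synthesis had 14 of 23 members higher and 9 lower (median 0.12, and from 0.073 without POR-null array 1 to 0.19 without wild type array 1). At an unadjusted p under 0.05, 6 stood on the higher side (26.1%, against 3.71% of all genes) and 1 on the lower (4.35%, against 2.75%). The groups were apart in 6 members (26.1%, against 9.3%). Scd1, the main stearoyl-CoA desaturase, read 7.02, 6.43 and 6.59 in wild type and 9.27, 8.60 and 7.05 in POR-null (1.63, SE 0.45), and its other probe set gave 0.19. Its POR-null array 3 was only just above the highest wild type array. Scd2, a related desaturase, read 9.80, 8.78 and 9.40 against 10.26, 10.47 and 9.75 (0.83, SE 0.24), with 0.47 and 0.59 in its other probe sets. Fads1, the delta-5 desaturase, read 6.29, 6.27 and 6.26 against 6.89, 6.44 and 6.60 (0.37, SE 0.13).

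The lipogenic regulator Srebf1 differed by 0.24, the fatty acid synthase Fasn by 0.31 and the acyltransferase Gpam by 0.33, each with an unadjusted p under 0.05. Apob, the protein of chylomicrons, was the lower member at 8.72, 7.91 and 8.09 against 7.39, 6.74 and 8.03 (-0.85, SE 0.27). Adipocyte markers were high in the same POR-null arrays as Scd1. Fabp4, the fatty acid binding protein of fat cells, read 4.58, 4.74 and 3.53 in wild type and 7.57, 7.38 and 4.19 in POR-null, and the adipokine Adipoq 3.90, 4.11 and 4.04 against 7.27, 6.44 and 3.95. The other probe sets of Fabp4 gave 1.87, 0.26 and -0.013. Over the whole adipocyte list, 5 of 8 were higher and 2 lower (median 0.055), the list mean ran from 5.30 to 5.56 in wild type and from 5.20 to 6.66 in POR-null, and the adipokine Lep was at 3.94 and 3.88, near the floor of the arrays. The part of fat cells in the Scd1 difference was not tested.

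Enzymes that conjugate drugs and other small molecules were lower. Of 31 measured, 26 were lower and 5 higher (median -0.19), and 4 had no overlap (12.9%, near the 9.3% of all genes). With p under 0.05 before adjustment, 7 were lower (22.6%, against 2.75% of all genes) and 1 higher (3.23%, near 3.71%). Averaged over the list, the signal was 8.35, 8.62 and 8.61 in wild type and 8.35, 8.34 and 8.29 in POR-null. There was no overlap, but wild type array 1 lay only just above the highest POR-null array (exact permutation p = 0.1, a test that cannot reach 0.05 here). On quercetin diet 18 were higher and 13 lower (median 0.023).

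Gstm3, a glutathione S-transferase, read 9.14, 8.96 and 9.00 in wild type and 8.72, 8.51 and 8.48 in POR-null (-0.46, SE 0.13), with -0.19 in its other probe set. Gsta4, the transferase for lipid aldehydes, read 8.14, 8.93 and 8.82 against 7.80, 8.07 and 8.20 (-0.61, SE 0.21). The phenol sulfotransferase Sult1a1 read 9.62, 10.82 and 10.92 against 9.52, 9.63 and 10.15 (-0.69, SE 0.31). In Gsta4 and Sult1a1 the overlap came from wild type array 1, the lowest of its group. The thiopurine methyltransferase Tpmt differed by -0.41 (SE 0.15) and by -0.15 in its other probe set. Sult2b1, the sulfotransferase for cholesterol and other sterols, was the higher member at 8.41, 8.49 and 8.48 against 8.89, 9.12 and 8.43 (0.35, SE 0.16), and differed by 0.42 on quercetin diet.

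Antioxidant genes known as targets of NRF2 gave 17 of 23 lower and 6 higher (median -0.11, and -0.040 without wild type array 2). With p under 0.05 before adjustment, 4 were lower (17.4%, against 2.75% of all genes) and 1 higher (4.35%, near 3.71%). Nqo1, the quinone reductase, read 6.40, 7.54 and 6.87 in wild type and 6.67, 6.10 and 6.17 in POR-null (-0.62, SE 0.23). The soluble epoxide hydrolase Ephx2 read 7.97, 8.14 and 7.94 against 7.57, 7.66 and 7.10 (-0.57, SE 0.22), and its microsomal relative Ephx1 6.39, 6.19 and 6.23 against 6.71, 6.59 and 6.54 (0.34, SE 0.11). The groups were apart in both hydrolases, in opposite directions, and overlapped in Nqo1. The glutathione reductase Gsr differed by -0.32 (SE 0.14). The haem oxygenase Hmox1, an acceptor of electrons from POR, differed by 0.063.

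Microsomal P450s and their electron partners differed in both directions. Of 33 measured, 13 were higher and 20 lower (median -0.080). With p under 0.05 before adjustment, 3 were higher (9.09%, against 3.71% of all genes) and 4 lower (12.1%, against 2.75%). There was no overlap in 4 (12.1%, near the 9.3% of all genes). Array means of the list lay from 7.32 to 7.43 in wild type and from 7.21 to 7.30 in POR-null, without overlap. The exact permutation p was 0.1, in a test that cannot reach 0.05 here, and on quercetin diet the median was 0.083. Cyp2d10 read 6.38, 5.94 and 6.58 in wild type and 6.71, 7.25 and 7.31 in POR-null (0.79, SE 0.25) and was higher on quercetin diet as well (0.37). Cyp2j6, an epoxygenase family member, read 6.79, 7.33 and 7.16 against 6.74, 6.37 and 6.72 (-0.48, SE 0.16). Cyp1b1 differed by 0.40 (SE 0.16) and Cyp2d22 by -0.35 (SE 0.16), where other probe sets gave 0.14 and -0.030 for Cyp1b1 and -0.050 for Cyp2d22.

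The widest difference of the list was that of Cyp3a11, the main drug-metabolising P450 of the mouse intestine, at a mean of 9.12 in wild type and 7.55 in POR-null (-1.58). It was singled out after its values were seen, and it is not among the 4 members of smallest unadjusted p. Cyp2d22, at only -0.35 (SE 0.16), is among those 4, so the SE of Cyp3a11 was the larger. On quercetin diet the Cyp3a11 difference was 1.48, of opposite sign. The AhR target Cyp1a1 differed by 0.063. The cytochrome b5 genes Cyb5a and Cyb5b, which pass electrons to P450s as well, differed by -0.080 and 0.040.

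Bile acid transport and signalling had 8 of 15 higher and 7 lower (median 0.0067), and 1 lower at an unadjusted p under 0.05 (6.67%, against 2.75% of all genes). This was Slc10a2, the sodium-dependent importer of bile acids, at 3.21, 5.14 and 5.48 in wild type and 3.60, 3.67 and 3.50 in POR-null (-1.02, SE 0.43). Without wild type array 1, which lay below all POR-null arrays, it was -1.72 and passed (adjusted p = 0.0165). The basolateral exporter subunit Slc51a differed by -0.66 (SE 0.39), the bile acid receptor Nr1h4 by -0.15, its target Nr0b2 by 0.0067, the ileal hormone Fgf15 by 0.050 and the vitamin D receptor Vdr by 0.13, all with an unadjusted p over 0.05.

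Genes of sulfide and sulfur amino acids include Mpst. Of 15 measured, 9 were lower and 6 higher (median -0.080). Mpst was the 1 member with an unadjusted p under 0.05 (6.67%, against 2.75% of all genes on the lower side). The sulfide oxidase Sqor differed by -0.037, the sulfur dioxygenase Ethe1 by -0.13 and the neighbouring sulfurtransferase Tst by 0.027. Oxidative phosphorylation had 41 of 57 lower and 14 higher (median -0.077). At an unadjusted p under 0.05, 5 were lower (8.77%, against 2.75% of all genes), and 2 were without overlap (3.51%, against 9.3%). Its leading members were the ATP synthase subunit Atp5g1 (-0.33, SE 0.12) and the complex IV subunit Cox6a1 (-0.22, SE 0.09), and on quercetin diet 42 were lower. Its control diet median ran from -0.13 (without wild type array 1) to -0.010 (without POR-null array 3).

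Glycolysis and hypoxia genes had 16 of 23 higher and 7 lower (median 0.093, and 0.037 without POR-null array 2). At an unadjusted p under 0.05, 3 were higher (13.0%, against 3.71% of all genes). Egln3, the prolyl hydroxylase that HIF induces, read 7.85, 7.46 and 7.50 in wild type and 8.34, 8.92 and 8.01 in POR-null (0.82, SE 0.20), with 0.76 in its other probe set. Hif1a read 8.61, 8.15 and 8.12 against 8.83, 9.38 and 8.31 (0.55, SE 0.24), with 0.55, 0.18 and 0.013 in its other probe sets, and the mitophagy receptor Bnip3 6.83, 6.90 and 7.06 against 7.02, 7.72 and 7.30 (0.42, SE 0.16). POR-null array 2 was the highest of the 6 in all 3 genes. The list means did not overlap, at 8.70 to 8.81 in wild type and 8.81 to 9.02 in POR-null (exact permutation p = 0.1, a test that cannot reach 0.05 here). The glycolytic enzymes Ldha and Aldoa differed by 0.057 and -0.047, each with an unadjusted p over 0.05.

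Ribosomal proteins and hosts of small nucleolar RNAs had 19 of 23 higher and 4 lower (median 0.11), and 5 without overlap (21.7%, against 9.3% of all genes). At an unadjusted p under 0.05, 2 were higher (8.70%, against 3.71%), Gas5 and the ribosomal protein Rps3a1 (0.23, SE 0.09). As a list mean the arrays read 10.21, 10.20 and 10.20 in wild type and 10.43, 10.30 and 10.23 in POR-null, and on quercetin diet the median was -0.023. The control diet median was 0.012 without POR-null array 1 and 0.17 without POR-null array 3. Crypt stem cell and Wnt target genes had 12 of 20 lower and 8 higher (median -0.050), and proliferation genes 15 of 29 lower and 13 higher (median -0.020), both with 0 members at an unadjusted p under 0.05 in limma.

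Other transport, stress and clock genes showed few members with an unadjusted p under 0.05. Over all genes the shares at that level were 3.71% higher and 2.75% lower. Sodium, chloride and water absorption had 9 of 25 higher and 16 lower, 3 higher (12%) and 2 lower (8%) at that level. There the kinase Sgk1, which aldosterone and glucocorticoids induce, read 9.91, 10.38 and 10.32 in wild type and 9.79, 9.56 and 9.17 in POR-null (-0.70, SE 0.23), and the water channel Aqp4 10.00, 9.30 and 9.54 against 10.33, 10.29 and 10.04 (0.61, SE 0.25). The groups were apart in both. The chloride channel Clcn2 differed by 0.35 (SE 0.12). Amino acid and peptide uptake had 9 of 21 higher and 12 lower, 2 higher (9.52%) and 1 lower (4.76%) at that level. Its peptide transporter Slc15a1 read 6.66, 5.52 and 5.97 against 6.49, 6.91 and 7.02 (0.76, SE 0.25). Motor proteins had 15 of 26 higher and 10 lower, 3 in each direction at that level (11.5% each). Beside Dync1h1, the dynein light chain Dynll2 differed by -0.40 (SE 0.13), the kinesin Kif5b by -0.34 (SE 0.12, other probe sets -0.37 to 0.13) and the myosin Myh9 by 0.26 (SE 0.09, other probe sets -0.093 to 0.23).

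Of 26 immediate early genes, 12 were higher and 14 lower. On the higher side Mcl1 had an unadjusted p under 0.05 (3.85%, near the 3.71% of all genes). On the lower side Sgk1 and Egr1 did (7.69%, against 2.75%). The survival factor Mcl1 read 10.25, 9.86 and 9.59 in wild type and 10.29, 10.48 and 10.44 in POR-null (0.50, SE 0.15), with 0.11 to 0.63 in its other 5 probe sets, and the zinc finger factor Egr1 differed by -0.39 (SE 0.15). The mTOR and nutrient sensing list had 13 of 21 higher and 8 lower. Of these, 2, both lower, had an unadjusted p under 0.05 (9.52%, against 2.75%), Rraga and the leucine sensor Sesn2 (-0.27, SE 0.11). The Hippo list had 9 of 19 higher and 10 lower, with the kinase Lats1 (-0.21, SE 0.09) and the YAP target Ccn1 (0.23, SE 0.10) at an unadjusted p under 0.05 (5.26% in each direction, against 3.71% higher and 2.75% lower). Lats1 read 3.98 in wild type and 3.77 in POR-null, below the lower quartile of every array, and Ccn1 read 4.52 and 4.75. The heat shock list had 14 of 20 lower and 6 higher, with the chaperone Dnaja1 (-0.40, SE 0.16) past that level (5%, against 2.75%). Of 31 genes of endoplasmic reticulum stress 18 were higher and 13 lower. An unadjusted p under 0.05 was found for 2 (6.45%, against 3.71%), the sensors Atf6 (0.33, SE 0.10) and Ern2 (0.42, SE 0.18). The circadian list had 14 of 21 lower and 7 higher, with Bhlhe40 (-0.29, SE 0.12) at an unadjusted p under 0.05 (4.76%, against 2.75%). The core clock members Clock (-0.030), Per2 (-0.0067) and Nr1d1 (-0.0067) had an unadjusted p over 0.05. When each of the 6 arrays was left out in turn, the medians of 15 of all 42 lists fell on both sides of 0, type I interferon genes (0.14 with all arrays) and 14 lists of smaller medians.

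**Figure D3:**
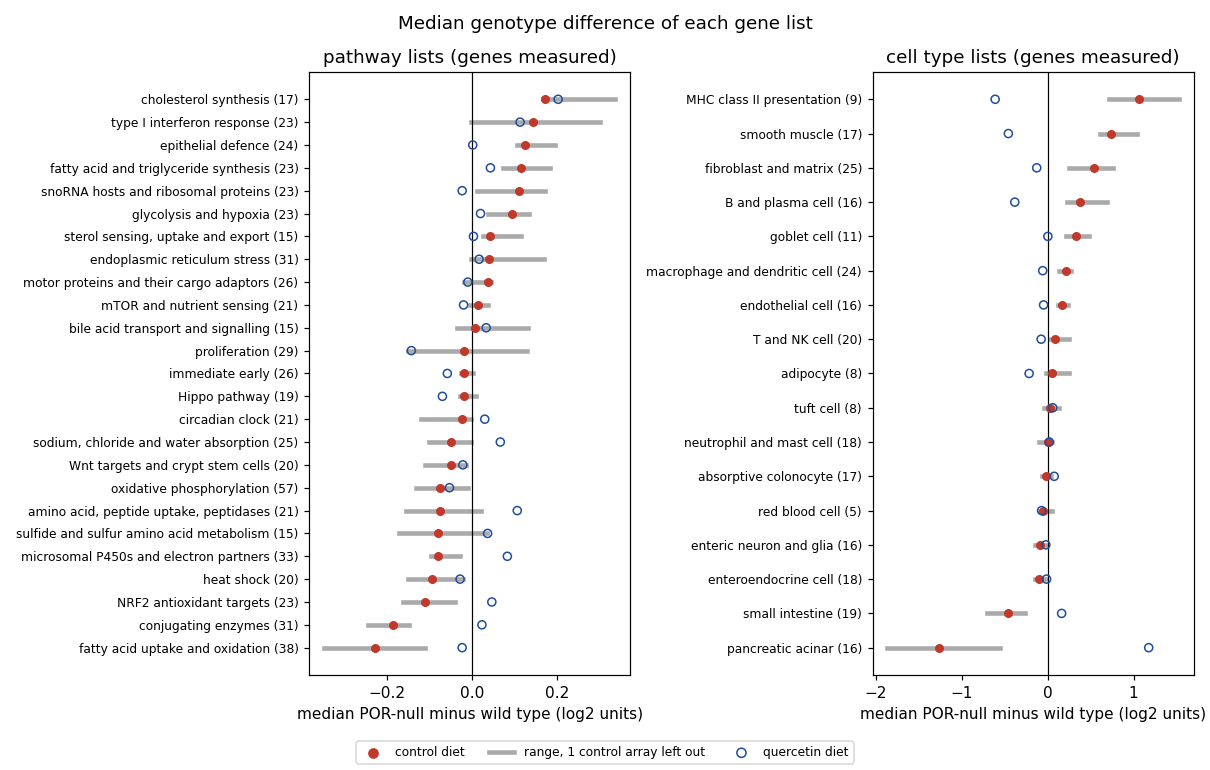
Median POR-null minus wild type over the measured genes of 25 pathway lists (left) and 17 cell type lists (right), in log2 units on the x axis, red for control diet, open blue for quercetin diet, with a grey bar from the lowest to the highest control diet median when 1 of the 6 arrays is left out. On control diet the pathway medians lie between -0.23 and 0.17 and the cell type medians between -1.26 and 1.06, and for MHC class II, smooth muscle and pancreatic acinar genes the quercetin diet median has the opposite sign.

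Goblet cell genes leaned to the higher side. These cells secrete the mucus gel of the colon. Of 11 measured, 9 were higher and 2 lower (median 0.33), and 3 had no overlap (27.3%, against 9.3% of all genes). With p under 0.05 before adjustment, 5 were higher (45.5%, against 3.71%) and 1 lower (9.09%, against 2.75%). Fcgbp, an abundant mucus protein, read 13.53, 12.62 and 12.85 in wild type and 13.61, 13.62 and 13.55 in POR-null (0.59, SE 0.20). Its POR-null arrays lay close together, just above wild type array 1. The mucus peptide Tff3 read 12.80, 12.27 and 12.41 against 12.72, 12.95 and 12.80 (0.33, SE 0.13), and the protease Capn9 8.73, 7.91 and 7.97 against 8.63, 8.73 and 8.85 (0.53, SE 0.21). Spdef, the factor that drives goblet cell maturation, went the other way at 8.68, 9.39 and 9.22 against 8.58, 8.45 and 7.81 (-0.82, SE 0.30). On quercetin diet 6 were higher and 5 lower (median 0.0033). The control diet median ran from 0.22 (without wild type array 2) to 0.48 (without wild type array 1).

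Epithelial defence had 19 of 24 higher and 5 lower (median 0.13, and 0.20 without wild type array 1). At an unadjusted p under 0.05, 4 were higher (16.7%, against 3.71% of all genes). The antibacterial goblet cell protein Retnlb read 12.86, 12.03 and 11.67 in wild type and 13.27, 12.89 and 12.53 in POR-null (0.71, SE 0.26), and the chemokine Ccl20 differed by 0.28 (SE 0.12) and the NF-kappaB inhibitor Nfkbia by 0.21 (SE 0.09, other probe sets -0.060 to 0.40). Type I interferon genes had 18 of 23 higher and 5 lower (median 0.14), 2 higher at an unadjusted p under 0.05 (8.70%, against 3.71%). The GTPase Gbp2 read 8.32, 7.02 and 6.55 against 8.36, 8.03 and 8.87 (1.12, SE 0.36), with 1.26 in its other probe set. It passed without wild type array 1, at 1.64 (adjusted p = 0.0318). The factor Irf1 differed by 0.39 (SE 0.15). The interferon median ran from -0.0017 (without wild type array 3) to 0.30 (without wild type array 1).

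Among rarer epithelial cells, the enteroendocrine list had 13 of 18 lower and 5 higher (median -0.098), with the granins Chga and Chgb each at -0.43 and an unadjusted p over 0.05. Insl5, the peptide hormone of colonic L cells, was the 1 member with an unadjusted p under 0.05 (5.56%, near the 3.71% of all genes on the higher side). Insl5 read 7.45, 6.33 and 7.80 in wild type and 8.60, 8.14 and 8.09 in POR-null (1.08, SE 0.34). The groups were apart for Insl5, and the difference on quercetin diet was 0.097. Tuft cell genes had 5 of 8 higher and 3 lower (median 0.025). Their members Dclk1 and Trpm5 differed by 0.030 and 0.18, and Alox5ap, which serves leukotriene synthesis, by 0.51 (SE 0.22) and by 0.85 without wild type array 1 (adjusted p = 0.0318). Alox5ap was the 1 tuft cell member with an unadjusted p under 0.05 (12.5% of 8 genes, against 3.71% of all genes). Colonocyte markers had 7 of 17 higher and 10 lower (median -0.017). At an unadjusted p under 0.05 there were 2 in each direction (11.8% each, against 3.71% higher and 2.75% lower over all genes). Muc3, a membrane mucin, differed by 0.22 (SE 0.08), the phosphate transporter Slc20a1 by 0.39 (SE 0.17) and Car1 by -0.46 (SE 0.19), with Car1 at 12.62, 13.31 and 13.13 against 12.70, 12.65 and 12.33.

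Most smooth muscle, fibroblast and endothelial markers were higher in POR-null. All 17 measured smooth muscle genes were higher (median 0.74). Of these, 3 had p under 0.05 before adjustment (17.6%, against 3.71% of all genes) and 6 were without overlap (35.3%, against 9.3%). The list mean was 6.22, 6.04 and 5.98 in wild type and 7.42, 7.55 and 6.21 in POR-null, so POR-null array 3 lay among the wild type arrays (exact permutation p = 0.2). The actins Acta2 and Actg2 differed by 1.34 and 1.88, the transgelin Tagln read 6.47, 5.97 and 5.85 against 8.34, 8.56 and 6.56 (1.72, SE 0.78), and the myosin light chain Myl9 differed by 1.83 (SE 0.77). The caldesmon Cald1 differed by 1.68 (SE 0.69), with 0.73 and 0.21 in its other probe sets. On quercetin diet 16 of 17 were lower (median -0.46), and 1 gene had the same sign on both diets. The list mean there was 6.38, 7.48 and 9.20 in wild type and 7.51, 7.17 and 7.18 in POR-null. These groups overlapped, with wild type array 3 the highest and wild type array 1 below all POR-null arrays.

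Fibroblast and matrix genes had 22 of 25 higher and 3 lower (median 0.54). With p under 0.05 before adjustment, 4 were higher (16%, against 3.71% of all genes), and 1 was without overlap (4%, against 9.3%). The median ran from 0.24 (without wild type array 3) to 0.77 (without POR-null array 3). As a mean over the list, the arrays read 6.64, 6.03 and 5.70 in wild type and 6.97, 6.76 and 6.20 in POR-null. The collagens Col1a1 and Col1a2 differed by 0.30 and 0.55, the dermatopontin Dpt read 6.49, 5.73 and 4.96 against 7.12, 7.47 and 6.00 (1.14, SE 0.39), and the lysyl oxidase Loxl1 differed by 0.44 (SE 0.18). In each array number POR-null exceeded wild type for Dpt while the groups overlapped, though the labels do not pair arrays by number. With the block in the 6 arrays, added after the data were seen, Fn1 and Dcn of this list passed. Endothelial genes had 15 of 16 higher and 1 lower (median 0.16), with the receptors Kdr (0.30, SE 0.12) and Tek (0.18, SE 0.08) and the adhesion proteins Pecam1 and Cdh5 at 0.23 and 0.15. Of these, 2, Kdr and Tek, had p under 0.05 before adjustment (12.5%, against 3.71%), and 0 were without overlap (against 9.3%). Tek read 3.74 in wild type and 3.92 in POR-null, below the lower quartile of every array. Enteric neuron and glia genes had 11 of 16 lower and 5 higher (median -0.085), with the neuronal Elavl3 and Elavl4 at -0.083 and 0.090 and Gap43 at -0.23 (SE 0.10). Gap43 read 3.95 in wild type and 3.71 in POR-null, also below the lower quartile of every array.

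All 9 genes of MHC class II presentation were higher (median 1.06). Of these, 5 had p under 0.05 before adjustment (55.6%, against 3.71% of all genes on the higher side) and 0 were without overlap (against 9.3%). Array means over the 9 genes were 8.02, 6.94 and 6.81 in wild type and 8.52, 7.72 and 7.79 in POR-null (exact permutation p = 0.3). The invariant chain Cd74 read 9.87, 8.07 and 7.85 in wild type and 10.70, 9.64 and 9.34 in POR-null (1.30, SE 0.50), and H2-Ab1 8.96, 7.86 and 7.05 against 9.78, 8.87 and 8.72 (1.17, SE 0.43), with 0.65 and 0.73 in the other probe sets of H2-Ab1. In both genes array 1 was the highest of each genotype, and within each array number POR-null exceeded wild type. The labels do not pair arrays by number. With the block in the 6 arrays, added after the data were seen, 4 of the 9 passed. These were Cd74 (adjusted p = 0.0223, limma), H2-Aa, H2-Ab1 (0.04) and H2-DMa (0.0308). On quercetin diet all 9 were lower (median -0.61), and 6 of 9 had an unadjusted p under 0.05 for the difference between diets, against 573 of 12074 over all genes.

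B and plasma cell genes had 15 of 16 higher and 1 lower (median 0.37), and 0 without overlap (against 9.3% of all genes). At an unadjusted p under 0.05 was 1 member (6.25%, against 3.71%), Cd22 (0.62, SE 0.26, other probe set 0.29). Array means of the list were 6.58, 5.69 and 5.68 in wild type and 7.09, 6.30 and 6.23 in POR-null. Ms4a1, the CD20 antigen, differed by 0.79. The median ran from 0.22 (without wild type array 2) to 0.69 (without wild type array 1). Cd79a of this list passed with the block in the 6 arrays. Macrophage and dendritic cell genes had 18 of 24 higher and 6 lower (median 0.21, and 0.13 without POR-null array 1). With p under 0.05 before adjustment, 4 were higher (16.7%, against 3.71% of all genes) and 1 lower (4.17%, against 2.75%). The adaptor Tyrobp read 5.81, 5.26 and 5.22 against 6.16, 6.12 and 5.73 (0.57, SE 0.17), the receptor Csf1r differed by 0.54 (SE 0.23, other probe sets 0.35 and 0.033) and the mannose receptor Mrc1 by 0.35 (SE 0.15). Cd14 and Cd68 differed by -0.17 and 0.26. The dendritic cell factor Zbtb46 differed by -0.30 (SE 0.12), where its other probe sets gave 0.077 and 0.017.

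T and NK cell genes had 15 of 20 higher and 5 lower (median 0.082), with Cd3d and Cd3e at 0.29 and 0.080. At an unadjusted p under 0.05 were the adaptor Lat (0.36, SE 0.14), Nkg7 (0.35, SE 0.13) and Cd8b1 (0.44, SE 0.18). They are 15% of the list, against 3.71% of all genes on the higher side. The list median ran from 0.038 (without POR-null array 1) to 0.25 (without wild type array 1). Neutrophil and mast cell genes had 9 of 18 in each direction (S100a8 0.087, S100a9 0.020) and red blood cell genes 2 of 5 higher and 3 lower (Hba-a1 0.12), both with 0 members at an unadjusted p under 0.05 in limma. The part of stromal and immune cells in the differences of Syk, Pik3cg, Csf2rb and Pdgfa above was not tested.

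Most markers of pancreas and small intestine had lower means in POR-null on control diet, led by wild type array 1. For the acinar list, wild type array 3 lay below all POR-null arrays. Of 16 measured pancreatic acinar genes, 13 were lower and 3 higher (median -1.26), and 5 had no overlap (31.3%, against 9.3% of all genes). With p under 0.05 before adjustment there were 2 in each direction (12.5% each, against 3.71% higher and 2.75% lower). Array means over the 16 genes were 8.81, 7.33 and 6.31 in wild type and 6.64, 6.68 and 6.57 in POR-null, so that the wild type arrays spanned the POR-null ones (exact permutation p = 0.4). The carboxypeptidase Cpb1 read 9.21, 7.44 and 5.47 in wild type and 5.22, 5.07 and 5.18 in POR-null (-2.22, SE 1.01), and Cpa1 differed by -1.66. Reg1, a lectin of acinar cells, read 7.10, 7.26 and 5.94 against 5.16, 5.13 and 4.81 (-1.73, SE 0.62) and passed with the block in the 6 arrays (adjusted p = 0.0189).

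The lipase relative Pnliprp2 went the other way, at 8.64, 5.44 and 5.09 in wild type and 10.05, 9.44 and 7.74 in POR-null (2.69, SE 0.93). Another probe set of Pnliprp2 gave 2.23, and both passed with the block in the 6 arrays. The protease inhibitor Spink1 read 11.28, 9.66 and 10.38 against 11.22, 11.22 and 11.19 (0.77, SE 0.34). The colipase Clps was the third member on the higher side (0.74). On quercetin diet all 16 acinar genes were higher in POR-null (median 1.18), with POR-null array 2 at a list mean of 9.45. The acinar median ran from -1.86 (without wild type array 3) to -0.56 (without wild type array 1).

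Small intestine genes had 17 of 19 lower and 2 higher (median -0.46). With p under 0.05 before adjustment, 3 were lower (15.8%, against 2.75% of all genes) and 2 higher (10.5%, against 3.71%). These 2, Lyz1 (1.66, SE 0.74) and Slc15a1 (0.76, SE 0.25), were the members that went the other way, and in both the groups overlapped. The median was -0.70 without wild type array 2 and -0.26 without wild type array 1. Its array means were 8.31, 7.24 and 7.52 in wild type and 7.45, 7.12 and 7.14 in POR-null, and the binding proteins Fabp1 and Fabp2 differed by -1.51 and -0.25. The sodium-glucose transporter Slc5a1 read 9.51, 9.18 and 9.31 in wild type and 8.88, 8.89 and 8.91 in POR-null (-0.44, SE 0.12), with -0.51 in its other probe set. The adenosine deaminase Ada read 8.18, 8.25 and 8.18 against 7.38, 7.09 and 6.88 (-1.09, SE 0.39), and passed with the block in the 6 arrays (adjusted p = 0.0223). For both genes the groups were apart, while the difference on quercetin diet was 0.13 for Slc5a1 and 0.64 for Ada. The part of carried-over tissue in these differences was not tested.

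**Figure D4:**
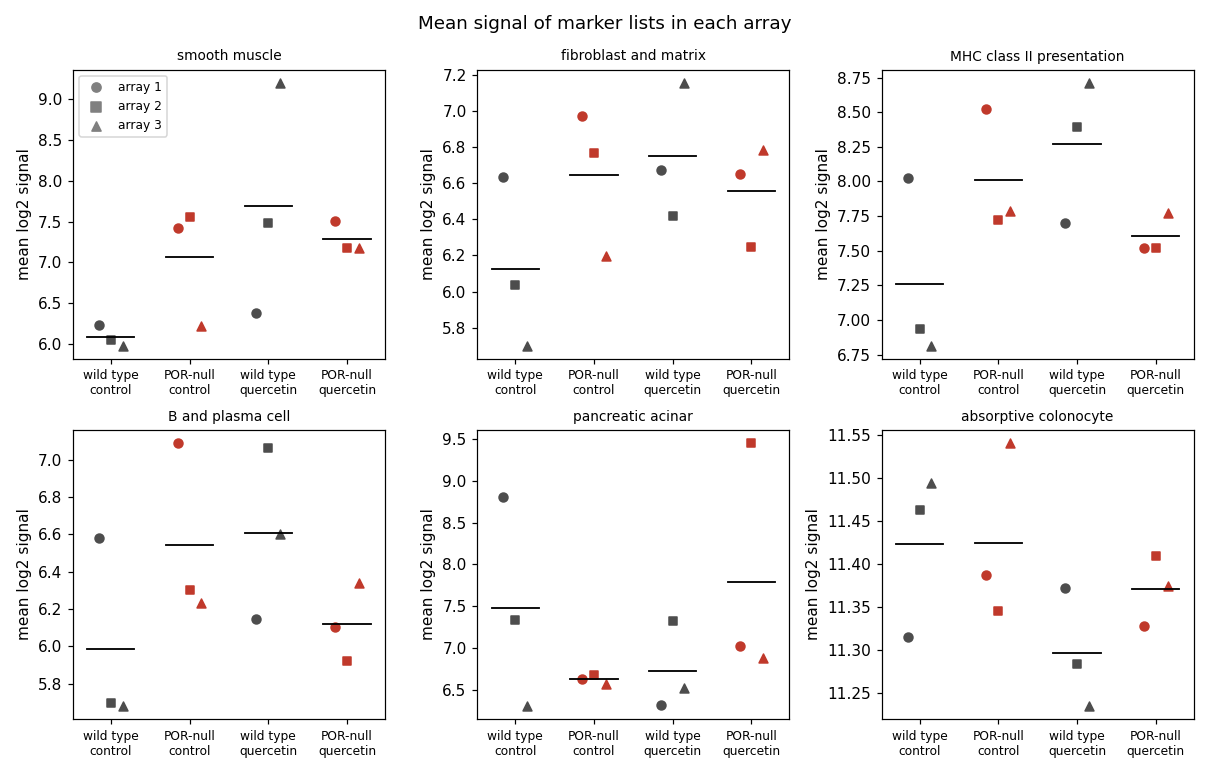
Mean log2 signal (y axis) of 6 marker lists in each of the 12 arrays, grouped by genotype and diet on the x axis, with grey for wild type, red for POR-null, marker shape for the array number and a black line for the group mean (n = 3 pools). Smooth muscle genes are at 7.42 and 7.55 in POR-null control arrays 1 and 2 and at 5.98 to 6.22 in the wild type control arrays, acinar genes reach 8.81 in wild type control array 1, and colonocyte genes stay between 11.24 and 11.54.

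Genes named here from the alternative fits, outside the rule, were chosen after their values were seen. The 47 probe sets of the block fit stood for 36 named genes. On the higher side they held matrix and vessel genes such as Col4a1 (1.38), Sparc (1.71), Igfbp4 (1.45 and 1.31 in 2 probe sets) and Rgs5 (2.00), and leukocyte genes such as Coro1a (1.38), Lcp1 (1.18), Ptprc (1.13), Laptm5 (1.38) and Cxcl13 (1.32). Brighter probe sets of Col4a1 and Sparc, not among the 47, gave 0.20 and 1.04. The chaperone Clu was called in 4 probe sets (0.94 to 1.54). The lower side held Reg1, Ada, Arg2, Xpnpep2 and the matrix protein Ccn3 (-1.27). Of the 47, 40 had the opposite sign on quercetin diet, while 48.8% of all genes had the same sign on both diets.

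The 41 probe sets without wild type array 1 stood for 24 named genes. On quercetin diet 22 of the 41 had the opposite sign, near the share over all genes, of which 48.8% had the same sign. In that fit the higher side held Hmgcs1, Fdft1 (1.08), Gbp2, Alox5ap, the keratin Krt18 (0.77) and the Paneth cell lysozyme Lyz1 (2.80 and 2.73 in 2 probe sets). The lower side held Slc10a2, Papss2, which makes the sulfate donor (-0.998 and -0.972 in 2 probe sets), the retinol saturase Retsat (-0.89), the thiolase Acaa2 (-0.94), Rtn4 and Acp6. Array weights called 31 of these 41 probe sets and 19 of the 47 of the block fit.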

How the data were processed

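Biotin-labelled total RNA, 1 pool of 3 mice per array, was hybridized to 430A mouse arrays of Affymetrix, per the labels. The authors deposited log2 signals per probe set, from 2.7 to 14.09 over the 12 arrays. MAS5 and RMA are named in the submitters' processing notes, and what each did is not stated in those notes. These values were used as deposited, with no filter on signal. The number of arrays, 3 in each group, limits the precision.

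Of 22690 probe sets, 64 Affymetrix controls were left out. By the array annotation supplied, 20380 of the 22626 tested had 1 gene symbol, 691 several and 1555 none, and 20351 were found by gene identifier in the RefSeq table of GRCm38.p6. Genes with no named probe set are not analysed here. All 12 arrays entered a fit with 4 group means in limma 3.58.1 (R 4.3.3, lmFit and eBayes with trend=TRUE, 8 residual and 4.91 prior degrees of freedom). Tests are two-sided, with Benjamini-Hochberg adjustment over the 22626 probe sets and a threshold of 0.05. The scripts were tested on simulated data.

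Named genes are the 30 of smallest unadjusted p with 1 symbol, up to 4 members of each list with an unadjusted p under 0.05, and 2 defining markers of each cell type list. Other list members named were chosen after their values were seen. For genes named by these rules, other probe sets are given where they differ by over 0.3 or in sign, and for some others. Lists hold 882 measured of 1009 genes in 42 lists (25 pathways and 17 cell types), by the brightest probe set of a gene, and are described by counts and medians. The members and lists were chosen with earlier results of these data known. The exact permutation p of a list mean describes the order of 3 against 3 arrays, cannot go below 0.1 and is no test of a list.

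The labels give arrays the numbers 1 to 3 in each group without saying that a number marks a shared cage, day or batch. Deviations from the group mean of same-numbered wild type and POR-null control diet arrays correlated at 0.19, 0.11 and 0.26 over probe sets, so that pairing was taken from the data. Same-numbered arrays of the genotypes on quercetin diet correlated at -0.12, 0.24 and 0.039, and those of different diets at -0.19 to 0.18, so that the numbers did not pair the arrays throughout. Fits with the replicate number as a block were run on all 12 arrays and, added after the data were seen, on the 6 control diet arrays. Further alternatives were array weights, only the 6 arrays, median centring, quantile normalization, a minimum mean signal of 6, a floor at 5, 1 probe set per gene, no trend, no moderation, and leaving out each array.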

Additional observations from a re-analysis of the deposited data

How the results depend on the processing

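The count of 0 probe sets past the adjusted threshold for genotype on control diet became 399 with array weights over 12 arrays, 319 with array weights over the 6 control diet arrays and 47 with the replicate block in the 6 control diet arrays, an alternative chosen after seeing the data. It ranged from 0 to 41 when 1 array was left out, with 41 without wild type array 1, and was 0 under the other alternatives run. With the replicate block in the fit of all 12 arrays it was 0, with 1654 at an unadjusted p under 0.05. The count at an unadjusted p under 0.05 moved from 1537 to 4632 and 4862 with array weights over 12 and 6 arrays. It was 855 for a mean signal of at least 6 and 826 with 1 probe set per gene, where fewer probe sets are tested, and ranged from 862 (without wild type array 3) to 2548 (without POR-null array 3). For the average over both diets the adjusted count ranged from 0 to 2 when 1 array was left out, with 2 without wild type control array 1 and 1 without POR-null quercetin array 1. The cause was not tested in any of these cases except for the smaller number of probe sets. Of 2229 values of 126 named genes under the alternatives, 2090 kept their direction and side of the threshold. A further 139, in 75 genes, passed it in the same direction, and 0 reversed. These genes were chosen by small unadjusted p on control diet arrays that the alternatives reuse. A reversal was therefore unlikely from the start, and its absence is no independent test of their direction. Of 672 list medians 23 moved by more than the spread between replicates. Centring or quantile normalization shifted the median of all probe sets by at most 0.013. With 3 pools per group and no raw images used, signals near the floor, such as those of Osmr and Lats2, limit what can be read.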
